A study of Mus musculus with 20 samples.

Results

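Kinesins are motor proteins that use ATP to walk along microtubules, mostly toward the plus end, which in axons points away from the cell body. They carry synaptic vesicle precursors, mitochondria, receptors and messenger RNA granules from the soma to distant synapses, and other members of the family organise the mitotic spindle or trim microtubule ends. The members described here were chosen by symbol, as all genes written Kif, a number and an optional letter, so that the related genes Kifap3, Kifbp and Kifc1 to Kifc3 stayed out. Of 37607 gene rows in the bulk table, 38 were such kinesin genes, and 37 of them, all but Kif28, were also in the single-cell table. The family was put forward with fragments and well counts of these data already known, so the comparisons below describe it and are no independent support for a pattern in it.

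RNA was measured in pyramidal cells of the mouse subiculum, through which much of the hippocampal output leaves, in bulk and in single wells. Fluorescent neurons had been picked by hand from dissected slices. The 12 bulk libraries were 3 biological replicates from each of 4 populations that send axons to different targets, labelled NA, PFC, RSC and VHN. By custom NA stands for the nucleus accumbens, PFC for prefrontal cortex and RSC for retrosplenial cortex; the labels spell out none of them, and VHN is left as it is. Genotype, strain, age, sex and the agent that made the cells fluoresce are not given in the sources used here, and no population served as an untreated control. The single-cell table held 384 wells on 4 plates, with no map from wells to projection targets, and was treated as 1 sample.

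The bulk libraries held between 10777273 and 20904126 gene fragments. Markers of pyramidal neurons summed to between 2378 and 4921 CPM (fragments scaled to a common library size) in every library. Interneuron markers reached 64.1 CPM in RSC 2, 259 CPM in RSC 3 and 187 CPM in VHN 3, and at most 14.04 CPM in the other 9 libraries. NA 2 had the lowest scaling factor (0.825) and stood above other NA libraries for several kinesin genes. Fewer cells of a type and less RNA per cell cannot be told apart in bulk samples.

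**Figure D1:**
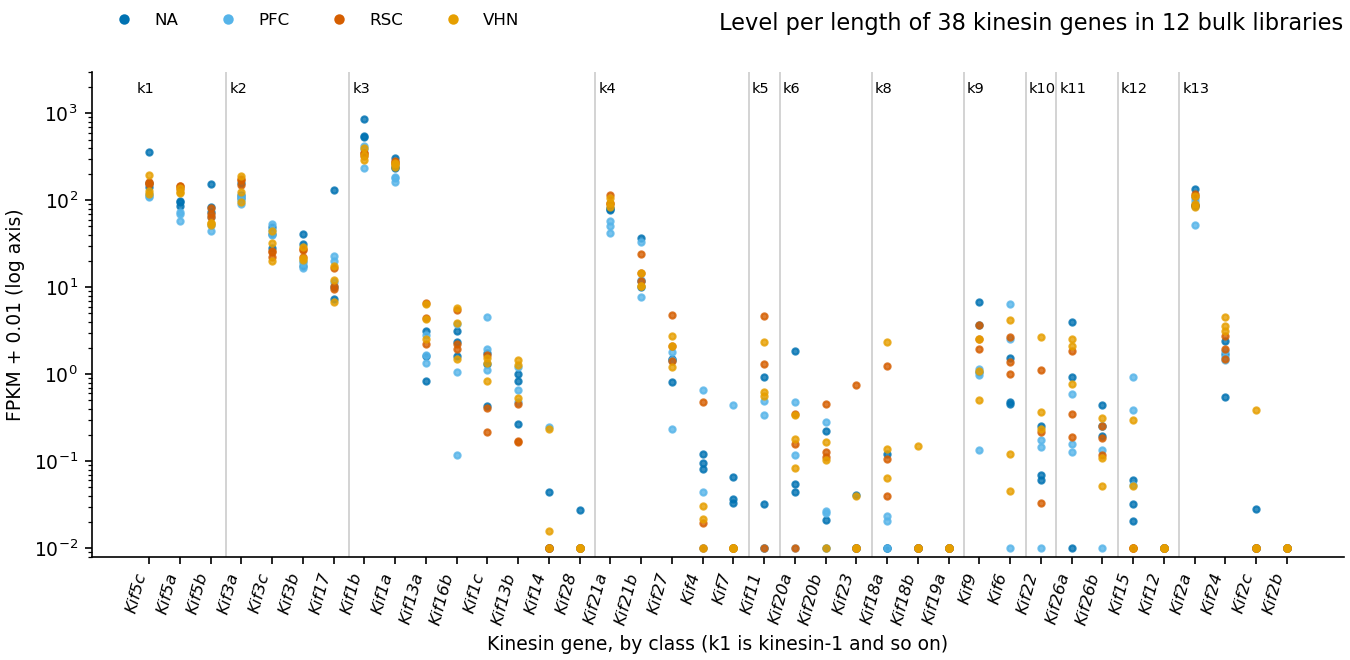
Level per length (FPKM + 0.01, log axis) of the 38 kinesin genes in each of the 12 bulk libraries, grouped by kinesin class, with 1 dot per library coloured by population. The 12 genes from Kif1b down to Kif21b in rank had means between 16.4 and 420 FPKM, and no other gene had a mean over 3.16 FPKM.

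A few transport motors made up most of the kinesin transcripts, and many members were scarce or absent. Fragments scaled for transcript length and library depth (FPKM) allow levels to be compared between genes. On this per-length scale the order of mean levels over the 12 libraries began with Kif1b (420 ± 166 FPKM), Kif1a (243 ± 44.5), Kif5c (160 ± 68.1), Kif3a (133 ± 34.7), Kif5a (107 ± 31.3), Kif2a (97.4 ± 21.3), Kif21a (81.0 ± 21.7) and Kif5b (70.7 ± 28.6) (SD, n = 12). These SD values include the differences between populations, and the ranges over libraries of neighbouring genes in this order overlapped. Next came Kif3c (35.7 FPKM), Kif3b (24.6), Kif17 (22.9) and Kif21b (16.4). The place of Kif17 rested on NA 2, at 131 FPKM, while the other libraries lay between 6.69 and 22.9 FPKM. All other members stayed below Kif13a, which had a mean of 3.16 FPKM.

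By role, the axonal cargo carriers of the kinesin-1, kinesin-2 and kinesin-3 classes supplied most of the abundant members. Kinesin-1 contains the heavy chains Kif5a, Kif5b and Kif5c, which carry mitochondria and many vesicle types. Kinesin-2 contains Kif3a, Kif3b and Kif3c, which pair with one another, and Kif17, which is known for moving NMDA receptors into dendrites. Kinesin-3 contains Kif1a and Kif1b, the carriers of synaptic vesicle precursors. Kif21a and Kif21b of the kinesin-4 class restrain microtubule growth, and Kif2a of the kinesin-13 class takes microtubules apart at their ends.

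Summed over all 38 genes, kinesin transcripts made up 7252, 8605 and 7031 CPM in NA, 5693, 6078 and 5414 in PFC, 7492, 7668 and 7847 in RSC and 6988, 7029 and 7220 CPM in the VHN libraries. The 3 PFC libraries were below all other libraries, and NA 2 was above all.

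Enough fragments for a test (filterByExpr of edgeR) were present for 27 of the 38 genes. Of these, 4 differed among the 4 populations in the edgeR 4-group test at an adjusted p under 0.05, against a background of 8.93% of the 13916 genes tested. They were Kif5a (edgeR adjusted p = 0.000459), Kif21a (edgeR adjusted p = 0.00154), Kif1a (edgeR adjusted p = 0.00815) and Kif5b (edgeR adjusted p = 0.0301). On the FPKM scale, limma called neither Kif1a nor Kif5b in this test and called Kif1b. In NA and PFC together against RSC and VHN together, Kif5b and Kif1b were higher (2 of 27, background 7.58% higher) and Kif5a, Kif21a and Kif1a were lower (3 of 27, background 6.66% lower). The members' share called higher, 7.41%, was near the background, and the share called lower was 11.1%. The median log2 fold change was −0.20 over the 27 members and 0.01 over all genes tested. Calls were more frequent among abundant genes: of the 4061 genes with a mean of at least 50 CPM, 28.4% were called in this contrast, and 5 of the 11 kinesin genes above that level. This level was chosen after the values were seen.

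**Figure D2:**
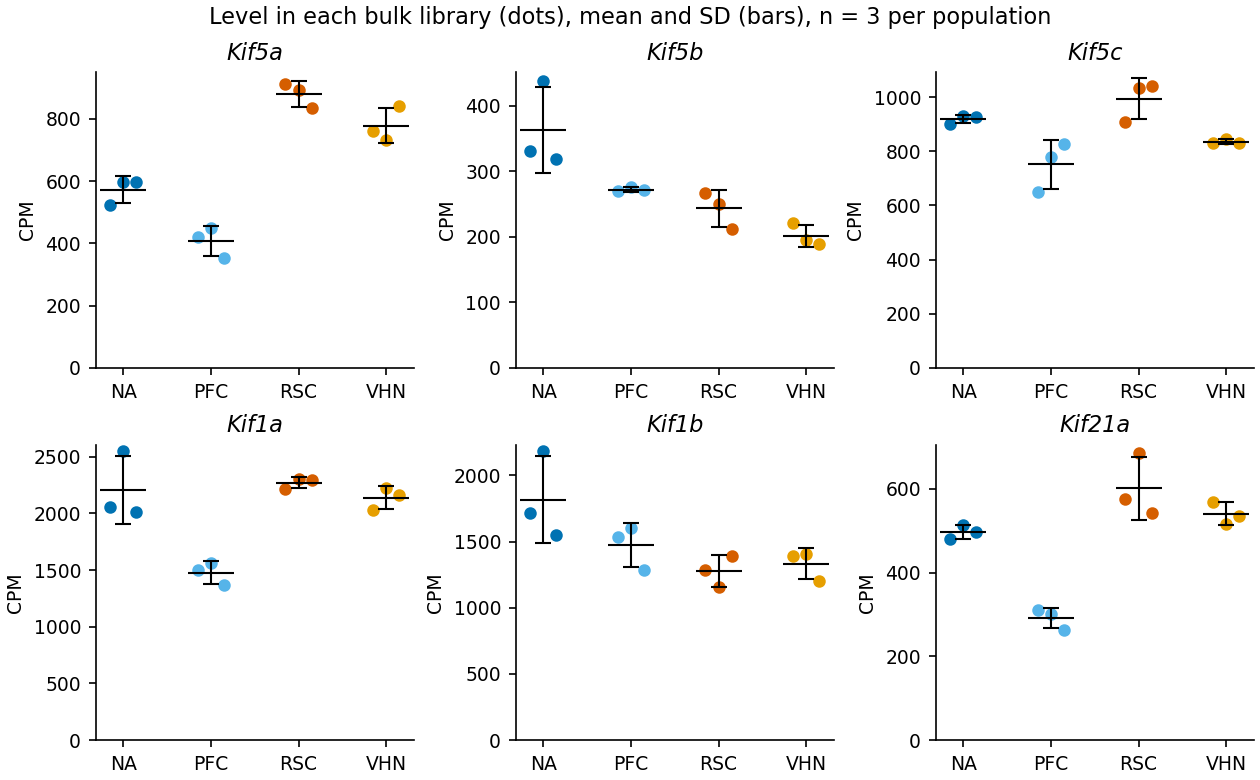
CPM of 6 kinesin genes in each bulk library (dots), with the mean and SD of each population (bars, n = 3). All 6 NA and PFC libraries lie below the RSC and VHN libraries for Kif5a and Kif21a and above them for Kif5b, whereas Kif1a and Kif1b overlap.

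The kinesin-1 heavy chains moved in opposite directions. Kif5a (ENSMUSG00000074657), the heavy chain made mainly in neurons and mutated in hereditary spastic paraplegia in people, was at 524, 597 and 598 CPM in NA 1 to 3 and at 420, 449 and 354 CPM in PFC. RSC libraries had 913, 894 and 834 CPM, and VHN libraries 762, 732 and 842 CPM. All 6 NA and PFC libraries were below all 6 RSC and VHN libraries. The means were 491 ± 99.4 and 829 ± 71.2 CPM (SD, n = 6 each), a 1.69-fold difference, with a log2 fold change of −0.78 (SE 0.103, 95% interval −0.99 to −0.56, edgeR adjusted p = 9.42e-05). From lowest to highest the populations ran PFC, NA, VHN and RSC, and no neighbours in that order differed in the edgeR pairwise tests (NA against PFC adjusted p = 0.162, NA against VHN adjusted p = 0.121, RSC against VHN adjusted p = 1). Steps of 2 or more in the order did differ: Kif5a was lower in NA than in RSC (−0.62, SE 0.145, edgeR adjusted p = 0.0175), in PFC than in RSC (−1.11, SE 0.146, edgeR adjusted p = 0.000159) and in PFC than in VHN (−0.93, SE 0.146, edgeR adjusted p = 0.00113).

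Kif5b (ENSMUSG00000006740), the heavy chain found in nearly all cell types, went the other way. It was at 331, 439 and 320 CPM in NA, 270, 276 and 271 in PFC, 268, 251 and 213 in RSC and 221, 195 and 190 in VHN. On this scale every NA and PFC library was above every RSC and VHN library, although PFC 1 (269.6 CPM) and RSC 1 (267.8 CPM) were close. The means were 318 ± 64.9 and 223 ± 30.9 CPM (SD, n = 6 each), with a log2 fold change of 0.50 (SE 0.130, 95% interval 0.23 to 0.78, edgeR adjusted p = 0.0153). Of the pairwise tests, NA against VHN was called (0.85, SE 0.185, edgeR adjusted p = 0.0194). In the 4-group test, the Kif5b call was lost in 11 of 22 alternatives, among them the fits without scaling and without NA 2, RSC 2, RSC 3, VHN 1, VHN 2 or VHN 3 (edgeR adjusted p up to 0.0908 with 1 library out). The call between the pairs was lost without RSC 3 (edgeR adjusted p = 0.0540). It was also lost on the FPKM scale, where the log2 difference was 0.22 (limma adjusted p = 0.514). Per length, PFC was not on the high side. Its mean of 53.6 FPKM was close to the VHN mean (53.8) and below the RSC mean (71.9), although PFC 1 (64.8) exceeded RSC 3 (63.6). The NA mean was 104 FPKM, with NA 2 at 152 and NA 1 (73.7) below RSC 1 (82.1).

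Kif5c, the most abundant heavy chain here and also mainly neuronal, was at 901, 930 and 925 CPM in NA, 648, 779 and 826 in PFC, 906, 1035 and 1041 in RSC and 829, 845 and 832 CPM in the VHN libraries. The libraries of both sides overlapped, and the log2 difference was −0.13 (95% interval −0.33 to 0.07, edgeR adjusted p = 0.400). Across all genes tested, 3.95% had all NA and PFC libraries below RSC and VHN, as Kif5a and Kif21a did, and 3.57% had them above, as Kif5b did.

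**Figure D3:**
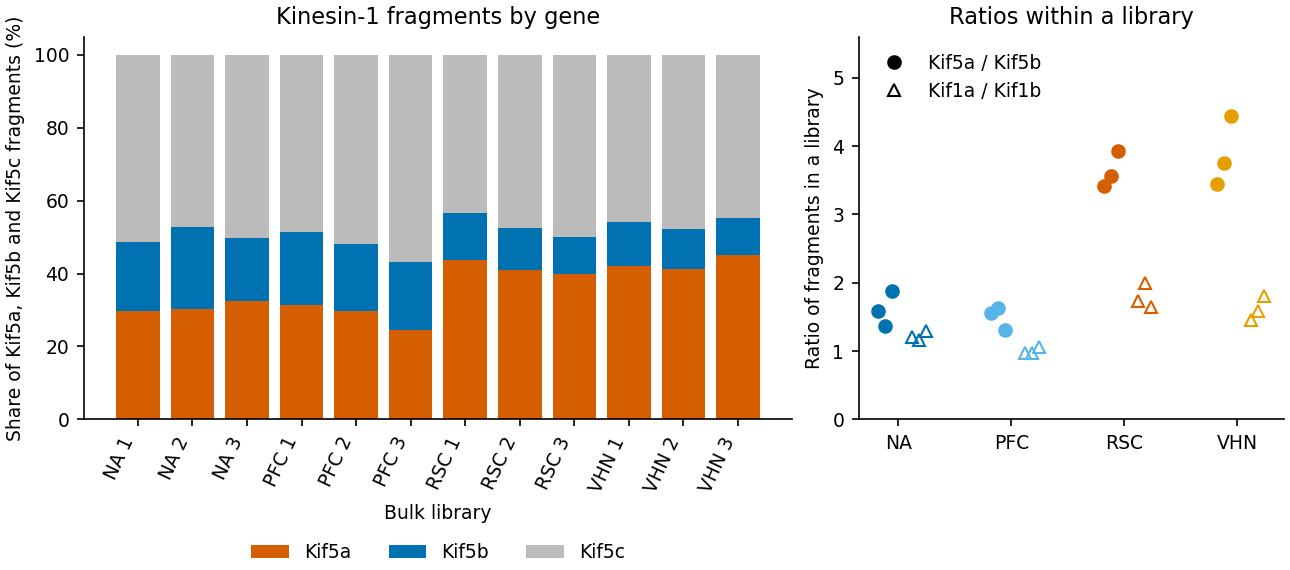
Left, share of the Kif5a, Kif5b and Kif5c fragments that belonged to each gene in the 12 bulk libraries (percent). Right, ratio of Kif5a to Kif5b fragments (circles) and of Kif1a to Kif1b fragments (triangles) in each library; the circles lie between 1.31 and 1.87 in NA and PFC and between 3.41 and 4.43 in RSC and VHN.

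Ratios of fragments within a library do not depend on how libraries are scaled to one another. Kif5a supplied 24.4% to 32.5% of the kinesin-1 fragments in NA and PFC libraries and 39.9% to 45.2% in RSC and VHN libraries. Kif5b supplied 17.3% to 22.3% on the first side and 10.2% to 12.8% on the other. The ratio of Kif5a to Kif5b fragments was 1.58, 1.36 and 1.87 in NA, 1.56, 1.63 and 1.31 in PFC, 3.41, 3.57 and 3.92 in RSC libraries and 3.45, 3.76 and 4.43 in VHN libraries. The means were 1.55 ± 0.203 and 3.76 ± 0.385 (SD, n = 6 each), with no overlap. The ratio was formed after both genes' values had been seen, so it carries no test.

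Kif21a (ENSMUSG00000022629), a kinesin-4 motor that slows microtubule growth at the cell cortex, was lowest in PFC. Its levels were 480, 515 and 497 CPM in NA, 311, 300 and 264 in PFC, 576, 685 and 543 in RSC and 570, 516 and 536 in VHN. All PFC libraries were far below the rest, and the highest NA library, NA 2, was next to the lowest VHN library, VHN 2 (514.8 and 515.8 CPM). The log2 fold change of NA and PFC against RSC and VHN was −0.58 (SE 0.107, 95% interval −0.81 to −0.35, edgeR adjusted p = 0.00148). By population, Kif21a was higher in NA than in PFC (0.77, SE 0.152, edgeR adjusted p = 0.0342), and lower in PFC than in RSC (−1.04, SE 0.153, edgeR adjusted p = 0.000381) and VHN (−0.89, SE 0.153, edgeR adjusted p = 0.00242). NA did not pass the test against RSC (−0.27, 95% interval −0.59 to 0.05) or VHN (−0.12, 95% interval −0.44 to 0.20).

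Kif1a (ENSMUSG00000014602), the main carrier of synaptic vesicle precursors, had the same low population. It was at 2057, 2548 and 2012 CPM in NA, 1498, 1566 and 1368 in PFC, 2217, 2307 and 2291 in RSC and 2030, 2224 and 2163 CPM in the VHN libraries. The PFC libraries were below all others, and NA overlapped RSC and VHN. Kif1a was lower in PFC than in RSC (−0.62, SE 0.120, edgeR adjusted p = 0.00339) and VHN (−0.53, SE 0.120, edgeR adjusted p = 0.0150), and higher in NA than in PFC (0.58, SE 0.120, edgeR adjusted p = 0.0438). The call against VHN was lost without VHN 2 or VHN 3 (edgeR adjusted p up to 0.0731) and with limma at either pseudocount. NA did not pass the test against RSC (−0.04, 95% interval −0.29 to 0.21) or VHN (0.04, 95% interval −0.21 to 0.30). The contrast of pairs, −0.29 (SE 0.0845, edgeR adjusted p = 0.0294), averages a low PFC with an NA level close to the other side. It was lost without any 1 of NA 1, NA 3, PFC 3, RSC 1, RSC 2, RSC 3, VHN 2 or VHN 3 (edgeR adjusted p between 0.0571 and 0.0788) and in DESeq2 (adjusted p = 0.0843).

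Kif1b (ENSMUSG00000063077), whose isoforms carry mitochondria or synaptic vesicle precursors, was at 1714, 2182 and 1550 CPM in NA, 1531, 1601 and 1285 in PFC, 1283, 1154 and 1394 in RSC and 1394, 1405 and 1200 in VHN. NA was above all RSC and VHN libraries, and PFC 3 lay within their range. The log2 fold change of the pairs was 0.33 (SE 0.104, 95% interval 0.10 to 0.55, edgeR adjusted p = 0.0463). No pairwise edgeR test called Kif1b, although NA against RSC had an edgeR adjusted p of 0.0529 and was called in 8 of 22 alternatives, among them DESeq2 and limma. With limma at either pseudocount, Kif1b was called there in place of Kif5a. The call was lost without NA 1, NA 2, PFC 1, PFC 2, RSC 1, RSC 2, RSC 3, VHN 1, VHN 2 or VHN 3 (edgeR adjusted p between 0.0579 and 0.124). In the deposited table, the Kif1b entries of NA 1, NA 3, PFC 1 and PFC 2 carried the status FAIL, and the part of this status in the difference was not tested. The ratio of Kif1a to Kif1b fragments lay between 0.978 and 1.30 in NA and PFC and between 1.46 and 1.999 in RSC and VHN, without overlap and with no test, since it too was formed after the values were seen.

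**Figure D4:**
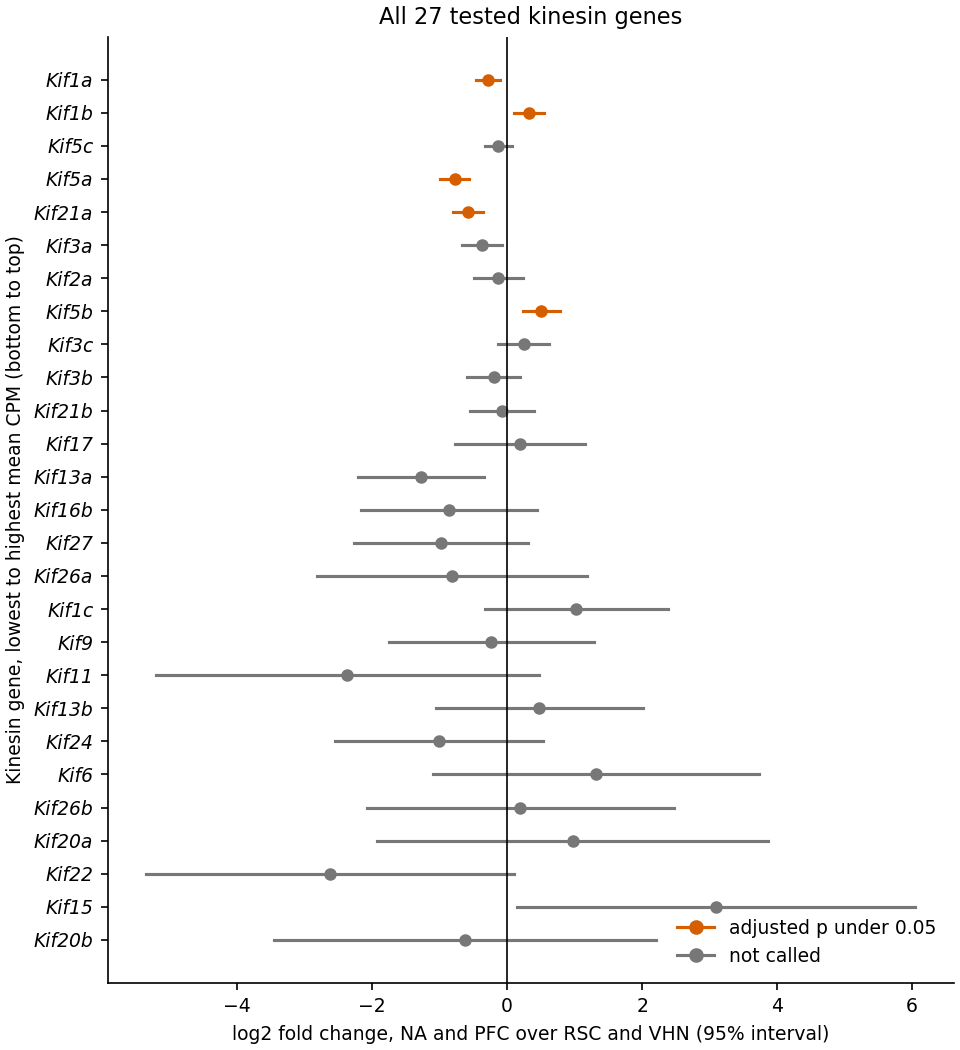
Log2 fold change of NA and PFC over RSC and VHN with its 95% interval for the 27 tested kinesin genes, ordered by mean CPM. The 5 called genes (orange) are all among the 8 most abundant, and intervals widen toward low levels.

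The other kinesin-2 and kinesin-13 genes did not pass in the contrast of pairs. Kif3a, the subunit shared by kinesin-2 heterodimers, was at 367, 542 and 398 CPM in NA, 345, 391 and 378 in PFC, 571, 614 and 582 in RSC and 464, 338 and 582 in VHN. RSC was above every NA and PFC library, and VHN spread over both ranges. Kif3a was lower in PFC than in RSC (−0.67, SE 0.199, edgeR adjusted p = 0.0435). That call was lost without PFC 1, PFC 2, PFC 3, RSC 1, RSC 2, RSC 3 or VHN 1 (edgeR adjusted p up to 0.134), with RLE size factors, with limma at either pseudocount and with the replicate block. The contrast of pairs gave −0.37 (95% interval −0.67 to −0.08, edgeR adjusted p = 0.0875). Kif3b ranged from 81.6 to 204 CPM (log2 difference −0.20, SE 0.185), Kif3c from 95.2 to 180 CPM (0.24, SE 0.178) and Kif2a from 204 to 402 CPM (−0.13, SE 0.170), with edgeR adjusted p of 0.539, 0.416 and 0.679. Kif17 was at 150 CPM in NA 2 and between 16.8 and 53.0 CPM in the other 11 libraries (log2 difference 0.19, SE 0.457, edgeR adjusted p = 0.834).

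Of the remaining tested genes of the kinesin-3 and kinesin-4 classes, all but Kif21b stayed at or below 46.2 CPM in every library. Kif13a, which carries receptors from the Golgi apparatus to the cell surface, was at 5.41 to 21.9 CPM in NA and PFC and 15.2 to 46.2 CPM in RSC and VHN, so the ranges overlapped. Its log2 difference of −1.28 (SE 0.442, edgeR adjusted p = 0.0639) did not pass in edgeR and did in DESeq2. Kif16b, a motor of early endosomes, ranged from 0.563 to 31.8 CPM (−0.86, SE 0.620), and Kif21b from 54.7 to 120 CPM (−0.08, SE 0.225). Kif27 ranged from 1.03 to 21.7 CPM, Kif1c from 1.26 to 12.7 CPM and Kif13b from 0.882 to 8.04 CPM. Their log2 differences were −0.98 (SE 0.613), 1.03 (SE 0.641) and 0.48 (SE 0.725), none past the edgeR threshold (adjusted p between 0.327 and 0.863 for these last 5 genes).

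Leaving aside Kif2a, kinesins known for work in the spindle were at low levels in bulk, none above 22.9 CPM in a library. Kif11, which pushes spindle poles apart, was at most 4.59 CPM in NA and PFC. It was at 0, 6.45 and 22.9 CPM in RSC and 2.73, 11.5 and 3.03 CPM in VHN, and the log2 difference of −2.37 had an SE of 1.34 (edgeR adjusted p = 0.273). Markers of dividing cells summed to 0.193 CPM in RSC 3, where Kif11 was highest. Those markers summed to 1.93 to 16.4 CPM in NA and PFC and 0 to 4.41 CPM in RSC and VHN. Kif15, Kif20a, Kif20b and Kif22, all with roles in cell division, did not exceed 6.43 CPM in any library. Kif15 was at 1.82, 0.207 and 4.50 CPM in PFC and had no fragment in the 3 RSC libraries, and its log2 difference between the pairs was 3.10 (SE 1.38, edgeR adjusted p = 0.160). Kif22 has a pseudogene copy, and the sources used here do not say how shared reads were assigned.

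Of the other tested genes, Kif26a and Kif26b of the kinesin-11 class reached 27.8 and 2.80 CPM. Kif6 and Kif9 of the kinesin-9 class, known from motile cilia, reached 9.15 and 18.9 CPM, and Kif24 reached 5.78 CPM. None was called between the pairs in edgeR (adjusted p between 0.410 and 0.930). The 11 genes left out of the tests had at most 6.71 CPM in a library (Kif18a in VHN 3). Of them, Kif4 reached 3.26, Kif23 2.60, Kif14 2.08, Kif7 1.97, Kif18b 0.473, Kif2c 0.238 and Kif28 0.0621 CPM. Kif12, Kif19a and Kif2b had no fragment in any of the 12 libraries.

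The 6 pairwise contrasts share libraries with one another, so their calls are not independent. PFC against RSC called 4 of 27 (background 9.76%) and PFC against VHN called 3 (background 5.09%). NA against RSC and NA against VHN called 1 each (background 5.83% and 2.75%), and NA against PFC called 2 (background 0.438%). The calls between NA and PFC were lost when any library but NA 3 was left out. The Kif5a call between NA and RSC was lost without NA 1, RSC 1 or RSC 2, with 2 genes called without NA 3 or PFC 3. The Kif5b call between NA and VHN was lost without NA 2, VHN 1, VHN 2 or VHN 3.

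RSC against VHN called 0 of 27 in edgeR, beside 0% of all genes tested, and 0 in DESeq2. At an unadjusted edgeR p under 0.05 it had 1 of 27 (Kif15), beside 721 of all 13916 genes tested. The other ways to pair the populations called 0 kinesin genes in edgeR as well. NA and RSC against PFC and VHN called 0.165% of all genes in edgeR, and 1 kinesin gene, Kif21a, in DESeq2. At an unadjusted edgeR p under 0.05 this pairing had 8 of 27 kinesin genes, beside 1580 of all 13916 genes tested. NA and VHN against PFC and RSC called 0.00719% of all genes in edgeR, and 0 kinesin genes in DESeq2. At an unadjusted edgeR p under 0.05 it had 2 of 27 kinesin genes, beside 1169 of all 13916 genes tested.

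Transcripts used as markers of other cell types differed between some of these groups, and whether they came from other cells was not tested. Kif5a was at 913, 762 and 732 CPM in RSC 1, VHN 1 and VHN 2, where interneuron markers summed to 5.25, 1.52 and 3.57 CPM, and each of these values was above all NA and PFC libraries. With RSC 2, RSC 3 and VHN 3 left out, the log2 fold change was −0.76 for Kif5a (edgeR adjusted p = 0.00986), −0.54 for Kif21a (edgeR adjusted p = 0.0811), 0.43 for Kif5b (edgeR adjusted p = 0.306), −0.26 for Kif1a (edgeR adjusted p = 0.360) and 0.30 for Kif1b (edgeR adjusted p = 0.345). RSC then rested on 1 library, which was assumed to vary like the rest, and all genes called fell from 1982 to 746. Of the 4 endothelial and mural markers, Cldn5 was at 0 in all libraries, and the sum, nearly all Rgs5, was 24.0 to 91.8 CPM in NA and PFC and 2.02 to 21.5 CPM in RSC and VHN. The 6 astrocyte markers summed to 281 to 590 and 61.9 to 388 CPM, nearly all from Slc1a2, while Aqp4 was at most 4.07 CPM. The 5 oligodendrocyte markers summed to 38.7 to 73.7 and 40.4 to 152 CPM, and the 4 microglia markers to at most 1.048 CPM. In the 348 single wells, 336 of them with a pyramidal marker, Slc1a2 had a count in 38.8% and the oligodendrocyte marker Mbp in 56.6%. The 8 pyramidal markers summed to 3384 to 4921 CPM in NA and PFC and 2378 to 2781 CPM in RSC and VHN. The part of these transcripts in the kinesin differences was not tested beyond the fit without those 3 libraries.

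Scaled fragments divided by FPKM show the effective length of the transcript mix that the authors' estimate assigned to a gene. Kif5a stayed at 91.9 to 92.1 scaled fragments per FPKM unit, so its level per length follows its fragments. Kif5b ranged from 43.3 in NA 2 to 92.2 in PFC 3 within NA and PFC, and from 48.6 to 59.95 in RSC and VHN. Kif1b ranged from 38.1 in NA 2 to 82.7 in PFC 3, and Kif5c from 38.8 in NA 2 to 105. NA 2 had the lowest value for each of these 3 genes.

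The partners and track of these motors were read from lists written with earlier results of the same data known. Of 10 genes for light chains, other subunits and minus-end directed kinesins, 8 were tested and 0 were called between the pairs in edgeR (median log2 fold change 0.05). The 3 with the lowest p were Klc2 (0.67, SE 0.224, edgeR adjusted p = 0.0565), Kifap3, the accessory subunit of kinesin-2 (−0.28, SE 0.1001, edgeR adjusted p = 0.0750), and Klc1 (−0.39, SE 0.172, edgeR adjusted p = 0.155). Klc1 and Klc2 encode kinesin-1 light chains, which bind cargo.

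Of 25 cargo adaptors, NA and PFC were higher in 2 and lower in 2 (8.0% each way, near the 7.58% and 6.66% of all genes tested; median 0.09). Hap1, which links kinesin-1 and dynein to vesicles, was at 45.3 ± 18.9 against 17.1 ± 8.55 CPM (SD over 6 libraries a side; difference on the log2 scale 1.47, edgeR adjusted p = 0.0147). Fez2 (−0.99, edgeR adjusted p = 0.0239) and Grip1, which ties AMPA receptors to Kif5 (−1.09, edgeR adjusted p = 0.0356), were lower. Mapk8ip1, the scaffold also called JIP1, was higher (0.79, edgeR adjusted p = 0.0385).

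The retrograde motor was also read. Of 26 dynein and dynactin genes tested, NA and PFC were higher in 4 and lower in 3 (15.4% and 11.5%, beside 7.58% and 6.66% of all genes; median 0.01). Of the 23 with a mean of at least 50 CPM, 6 were called, near the 28.4% of all genes at that level. Dync1h1, the dynein heavy chain, was at 1266 ± 235 against 1712 ± 69.01 CPM (SD, n = 6 each; −0.45, edgeR adjusted p = 0.00206). The light chain genes Dynll2 (−1.55, edgeR adjusted p = 5.28e-05) and Dynll1 (0.48, edgeR adjusted p = 0.00751) were called in opposite directions, and the dynactin filament gene Actr1b was higher (0.82, edgeR adjusted p = 0.00722). Dynll1 was named after its values were seen.

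Of 20 microtubule-associated protein genes, NA and PFC were lower in 6 and higher in 2 (30.0% and 10%, beside 6.66% and 7.58% of all genes; median −0.07). Of the 17 with a mean of at least 50 CPM, 6 were called, beside 28.4% of all genes at that level. Map1b, an abundant protein of growing axons, was at 7000 ± 1352 against 8732 ± 1195 CPM (SD, n = 6 each; −0.33, edgeR adjusted p = 0.00110). Map1a (−0.64, edgeR adjusted p = 0.000553) and the stathmin gene Stmn4 (−1.07, edgeR adjusted p = 0.000259), whose family sequesters tubulin, were lower too. For Map1b and Map1a, the contrast averaged a low PFC with an NA mean that lay above the VHN mean. From lowest to highest, Map1b had means of 5804 (PFC), 7662 (VHN), 8195 (NA) and 9802 CPM (RSC). Map1a means had the same order, at 1063, 2065, 2320 and 2891 CPM. Of 18 tested tubulin-modifying enzymes, 1 was higher and 2 lower (5.56% and 11.1%, beside 7.58% and 6.66% of all genes; median −0.06). The glutamylase genes Ttll11 (−1.30, edgeR adjusted p = 0.0207) and Ttll1 (−0.99, edgeR adjusted p = 0.0210) were lower, and Atat1, the tubulin acetyltransferase, was higher (0.99, edgeR adjusted p = 0.0260).

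**Figure D5:**
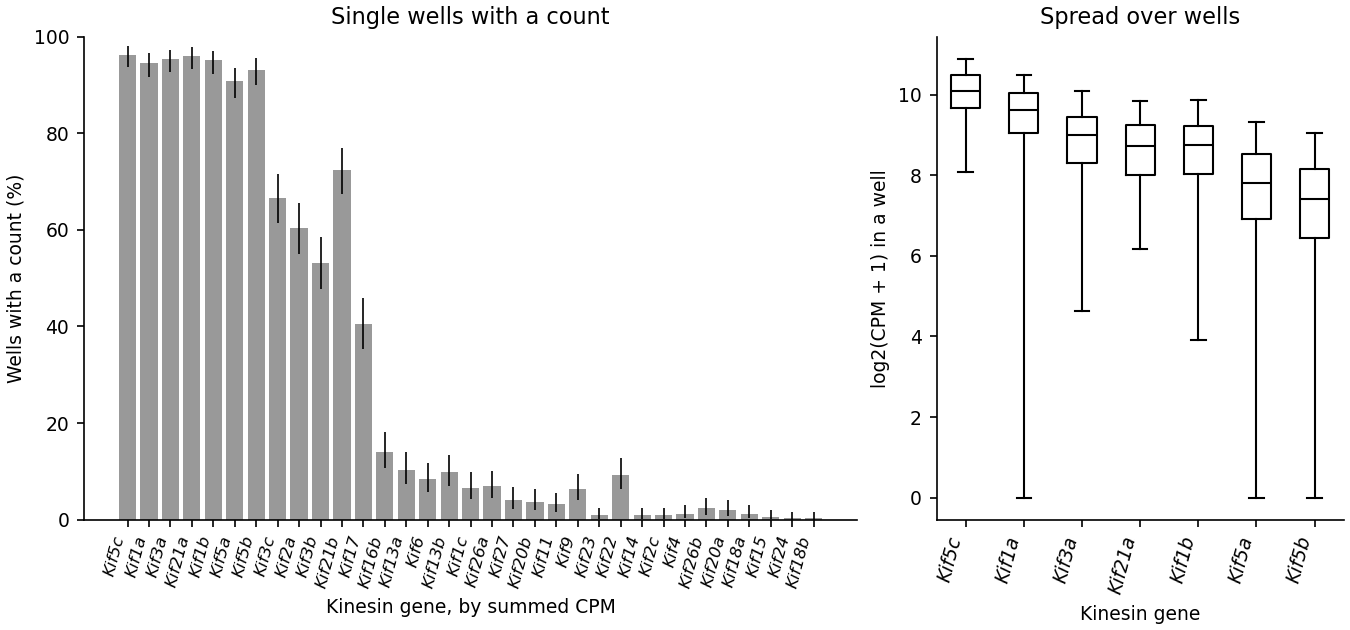
Left, percent of the 348 single wells with at least 1 count of each kinesin gene that had any, ordered by summed CPM, with 95% exact binomial intervals. Right, log2(CPM + 1) over wells for the 7 most abundant genes (box, quartiles; line, median; whiskers, 5th and 95th percentiles); these 7 genes each have a count in more than 90% of wells.

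Of 384 wells, 348 passed the minimum of 1000 detected genes. Their median total was 112401 counts (2795 to 322542). The wells are 1 pooled sample, so no test was made, and intervals cover counting error only.

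A few wells stood apart from the rest. In 12 of the 348 wells none of the 7 pyramidal markers in the table had a count, and their median total was 21608 counts. Markers of dividing cells had a count in 11 of these 12 wells and summed to 1301 CPM there, against 9.53 CPM in the other 336 wells. Endothelial and mural markers summed to 1616 and 6.71 CPM in the same comparison, from 4 of the 12 wells. Oligodendrocyte precursor markers summed to 210 and 1.80 CPM, from 7 of the 12, and microglia markers to 49.6 and 0.308 CPM, from 4. Astrocyte markers summed to 114 and 54.9 CPM, oligodendrocyte markers to 35.0 and 69.8 CPM and interneuron markers to 0 and 43.0 CPM. Kif5a and Kif1a had no count in any of the 12 wells, Kif5c and Kif3a had 3 counts each, and Kif5b had 127 counts in 9 wells (370 CPM, against 213 CPM in the other wells). In 9 wells Kif5b had a count and neither Kif5a nor Kif5c did; 6 of them were among the 12, and all 9 held a dividing-cell marker. These wells were picked out after the values were seen, so the comparison is a description with no test.

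Of the 37 kinesin genes, 4 had more than 50% of their counts in those wells, which held 0.873% of all counts, and all 4 are known from cell division. The 12 wells supplied 50 of the 94 counts of Kif20b, 23 of the 33 of Kif4, 23 of the 36 of Kif2c, which takes kinetochore microtubules apart, and all 6 of Kif15. For Kif11, 10 of 79 counts came from them, and for Kif20a none of 24.

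Of 37 kinesin genes, 11 had a count in at least 50% of the 348 wells, also without the 12, and a well held a median of 11 kinesin genes (1 to 16). Kif5c had a count in 96.3% of wells (95% exact binomial interval 93.7% to 98.0%) and a summed level of 1169 CPM. Kif1a followed with 94.5% of wells and 827 CPM, Kif3a with 95.4% and 560 CPM, Kif21a with 96.0% and 474 CPM, Kif1b with 95.1% and 469 CPM, Kif5a with 90.8% and 261 CPM and Kif5b with 93.1% and 215 CPM. Over the 4 plates these levels spanned 1069 to 1320 CPM for Kif5c, 230 to 286 CPM for Kif5a and 192 to 232 CPM for Kif5b.

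Most of the 336 wells with a pyramidal marker held a count of every kinesin-1 gene. All 3 heavy chains had a count in 300 wells, which is 89.3% of the 336 and 86.2% of all 348, and 4 wells of the 348 had none of them. Without the 12 wells, Kif5a had a count in 94.0% of wells, Kif5b in 93.8% and Kif5c in 98.8%. A large share of wells with all 3 follows from these single rates, so it is no measure of a link between the genes. Kif5c supplied 71.1% of the kinesin-1 counts, Kif5a 15.9% and Kif5b 13.1% (12.9% without the 12 wells), whereas in bulk Kif5c supplied 43.4% to 56.9% of the fragments. Both are counts without correction for length, from separately made tables, so their difference was not tested.

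A second tier was found in fewer wells, with Kif21b in 72.4%, Kif3c in 66.7%, Kif2a in 60.3%, Kif3b in 53.2% and Kif17 in 40.5%. Below these, Kif16b was in 14.1% and Kif13a in 10.3% of wells. Fewer than 5% of wells held a count for 17 of the 37 genes, among them Kif11 (3.16%) and Kif20a (2.01%). Kif23 had 54 counts in 3 wells, of which 40 were in 1 well. Any of the 7 dividing-cell markers had a count in 7.76% of wells. Kif12, Kif19a, Kif2b and Kif7 had no count in 348 wells, which allows a share of wells with a count of up to 0.862% (3 of 348). Across the 37 genes, bulk and single-cell CPM had Spearman's rho of 0.931, a description over genes, which are not independent replicates and whose lengths act on both.

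Nts, the neurotensin precursor gene, had a count in 245 of the 348 wells. Spearman's rho with Nts over wells was 0.20 for Kif5a, 0.21 for Kif21a, 0.17 for Kif1a, 0.07 for Kif1b and −0.005 for Kif5b. Nts itself had rho of 0.22 with the well total, so these weak values are given as a description only. Without the 12 wells, rho was 0.14 for Kif5a, 0.16 for Kif21a, 0.10 for Kif1a, 0.001 for Kif1b and 0.01 for Kif5b.

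Promoter windows of the kinesin genes were looked up as a description of their sequence, with no test. RefSeq windows (GRCm38.p6, 250 bases before to 50 after a start) were at hand for 31 of the 38 genes, in 35 windows, and of the called genes for Kif1a, Kif1b and Kif21a. The 250 bases before the start are printed 5′ to 3′ on the gene's strand, with capitals for matches on either strand to the CCAAT box (CCAAT), the cell cycle homology region (TTTGAA), the GC box (GGGCGG), an ETS-type site (CCGGAAGT) or the cyclic AMP response element (TGACGTCA).
Kif1a, chr1:93101875-93102124, minus strand: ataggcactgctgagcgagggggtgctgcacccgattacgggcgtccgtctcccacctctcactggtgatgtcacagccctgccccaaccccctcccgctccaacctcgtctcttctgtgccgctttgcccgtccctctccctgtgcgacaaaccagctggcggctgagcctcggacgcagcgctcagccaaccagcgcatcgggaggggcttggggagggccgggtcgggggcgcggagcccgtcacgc
Kif1b, chr4:149307734-149307983, minus strand: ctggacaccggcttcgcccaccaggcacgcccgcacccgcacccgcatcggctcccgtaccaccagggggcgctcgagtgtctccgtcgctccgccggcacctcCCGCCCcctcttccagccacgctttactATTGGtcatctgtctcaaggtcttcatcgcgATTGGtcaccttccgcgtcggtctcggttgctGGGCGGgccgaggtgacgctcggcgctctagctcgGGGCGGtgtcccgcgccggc
Kif21a, chr15:91049952-91050201, minus strand: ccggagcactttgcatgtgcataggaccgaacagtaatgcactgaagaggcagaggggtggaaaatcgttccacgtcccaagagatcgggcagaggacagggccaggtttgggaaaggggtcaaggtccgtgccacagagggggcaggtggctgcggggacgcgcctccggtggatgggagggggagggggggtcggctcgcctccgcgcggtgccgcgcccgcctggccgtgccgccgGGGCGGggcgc
These stretches were 69.2%, 70.0% and 69.6% G and C. Kif1b held 3 matches to the GC box and 2 to the CCAAT box, Kif21a held 1 to the GC box, and the printed Kif1a stretch held no match. A further Kif1a window held 1 match to TTTGAA. A further Kif1b window, which overlaps the printed stretch, held 4 matches to the GC box and 2 to the CCAAT box.

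Over the full windows, GGGCGG was in 65.7% of the 35 kinesin windows and 35.7% of all 32851 windows, CCAAT in 42.9% and 37.4%, and TTTGAA in 34.3% and 17.9%. CCGGAAGT was in 8.57% and 3.89%, and TGACGTCA in 8.57% and 1.79%. No motif contains another, and windows of 1 gene can share bases. A match is a description of letters, and no factor was measured at these promoters.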

How the data were processed

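Bulk values came from a read-group tracking table of 12 libraries. Per the file headers, it holds raw fragments (expected counts per gene and library, not normalized), internally scaled fragments (a signal scaled by the authors with a factor per library) and FPKM, deposited without a pseudocount. Deposited single-cell values are integer counts of each gene in each well; use of molecular identifiers is not given in the sources used here. The genome build was mm9, per the submitters' processing notes; aligner, counter and annotation are not given in the sources used here, nor is strand use. No mm9 annotation was at hand, so gene coordinates are not printed, and symbols came from a later annotation matched by identifier (87.5% of gene rows). The 92 spike-in rows and 0 per-sample columns were left out. Replicates are numbered from 0 in the table and from 1 in the labels, and were taken in the same order to name libraries.

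Expected counts (8.51% of those above 0 not whole) were rounded, filtered with filterByExpr (smallest count 10) and scaled by TMM in edgeR 4.0.16. All 12 libraries entered 1 quasi-likelihood fit with 8 residual degrees of freedom, and p-values were adjusted over 13916 genes with the Benjamini-Hochberg method at 0.05. CPM are TMM scaled. Values in every library are given for kinesin genes called in the 4-group test or the contrast of pairs. Kif5c and Kif3a, called in neither, are also given in every library. The others have ranges, with single libraries for some. Each related list is given by its 3 lowest p, with Mapk8ip1 and Dynll1 added beyond these. The members and lists were chosen with earlier results of these data known. Alternatives used DESeq2 1.42.0, limma 3.58.1 on log2(FPKM + 0.1) or log2(FPKM + 1) of the authors' FPKM, other scalings and filters, a replicate block and left-out libraries. The edgeR script was tested on simulated data with larger changes than those of the called kinesin genes. That run checked the code only and does not bear on calls of this size. The labels' replicate numbers are shared between populations, and they did not pair the libraries.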

Additional observations from a re-analysis of the deposited data

How the results depend on the processing

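Of 22 alternatives to the contrast of NA and PFC against RSC and VHN, Kif5a was called in 22 (log2 fold change −0.85 to −0.73), Kif21a in 21, Kif5b in 18, Kif1a in 8 and Kif1b in 6, and no direction reversed. The contrast, with 5 kinesin genes called, had 2 with limma at either pseudocount, 3 without a filter on low counts, 1 with RSC 2, RSC 3 and VHN 3 left out, and 2 to 6 with single libraries left out. With those 3 libraries out, the 4-group test called 2 (3 to 4 with single libraries out), PFC against RSC called 1 (otherwise 3 to 5), and NA against PFC, NA against RSC and NA against VHN called 0 each.

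NA against PFC called 1 with RLE size factors and 0 without scaling, with limma at either pseudocount, and without NA 2 and PFC 3 together (0 to 2 with single libraries out). NA against RSC called 2 with RLE size factors, without a filter and with the filter at 1 CPM in 3 libraries, 3 with DESeq2, and 0 to 2 with single libraries out. NA against VHN called 0 with limma at either pseudocount and 0 to 1 with single libraries out. NA and RSC against PFC and VHN called 1 with DESeq2. The cause of these moves was not tested. Fits with libraries left out differ in both the number and the make-up of the libraries.

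Over all genes, the 4-group test called 1243 genes, 2408 with DESeq2, 2709 without a filter and 446 without the 3 libraries. The contrast of pairs split into 1055 higher and 927 lower, against 913 and 1046 without scaling and 828 and 952 with limma at the smaller pseudocount. The median log2 fold change of all genes was 0.18 without the 3 libraries.

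The replicate block left 4 genes in the 4-group test and 4 in the contrast of pairs (Kif1b lost, edgeR adjusted p = 0.0554), and Kif3a was lost in PFC against RSC (edgeR adjusted p = 0.0544). Same-numbered libraries did not deviate together: of 18 pairs, 0 had a correlation over 0.1 (−0.0449 to 0.0303).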

Other observations

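For Kif3c, a neuronal kinesin-2 subunit, scaled fragments per FPKM unit were 55.2, 53.8 and 52.5 in NA, 53.8, 58.5 and 49.8 in PFC, 64.1, 69.3 and 70.0 in RSC and 69.7, 60.7 and 88.7 in VHN. All NA and PFC libraries were below all RSC and VHN libraries in this measure of the estimated transcript mix, while the Kif3c fragment levels overlapped. The measure was formed for the 19 kinesin genes with FPKM above 0 in every library, and Kif3c was the only one of them without overlap. It was not formed for other genes, so the share of all genes without overlap is not known, and nothing particular to Kif3c can be read from it. The measure was added after the data were seen and carries no test.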
